A study of Bos taurus with 18 samples.

Results

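Sense overlapping circRNAs are circles that the authors' table assigns to the strand of a known gene without listing them as exonic or intronic. They were chosen by this label alone, and the table held 490 of them among 3914 circRNAs (12.5%), with 2660 exonic, 348 antisense, 278 intronic and 138 intergenic circRNAs beside them. The cells were MAC-T, an immortalized bovine mammary epithelial line. The control group received no bacteria, the S. aureus group heat-inactivated Staphylococcus aureus and the E. coli group heat-inactivated Escherichia coli, each at a multiplicity of infection of 10 for 24 h. Each group had 3 wells of this line, and each of the 9 wells gave an input library, in which circRNAs were counted, and an immunoprecipitated (IP) library, in which m6A peaks were called. The sources call the wells replicates of one cell line, so the p-values below measure only the spread between wells, which may be technical.

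A circRNA forms when the spliceosome joins a downstream splice site to an upstream one, and it is recognised by reads that cross this back-splice junction. Exonic circles close between annotated exon ends, and they are the best studied class. Sense overlapping circles have at least part of a gene inside them, but their ends need not be exon ends. N6-methyladenosine (m6A) is deposited on RNA by the METTL3 and METTL14 writer complex, and in immunoprecipitation it appears as a peak of antibody-bound fragments over the input.

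The 9 input libraries held 361 to 402 junction reads in S. aureus wells, 909 to 962 in E. coli wells and 1529 to 2057 in control wells, over all classes. The IP libraries held 27 to 29 peaks in S. aureus wells, 645 to 857 in E. coli wells and 1138 to 1358 in control wells. Counts of circles and peaks in S. aureus wells therefore rest on few events. Of 20 mammary epithelial marker genes, 8 hosted a circle of any class, DSP (desmoplakin, a desmosome protein) and LAMA3 (a laminin chain) among them. Of 20 markers of blood, endothelial, fibroblast, muscle and fat cells, 0 hosted a circle.

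The length given for sense overlapping circRNAs was the whole distance between their ends. For all 490 members the predicted sequence length equalled the genomic span, whereas it equalled the span in 173 of 2660 exonic circRNAs (6.50%). The same held for all 348 antisense, 278 intronic and 138 intergenic circRNAs, so this was not particular to the members. The members spanned 76 to 95370 bases with a median of 6590, and exonic circles spanned a median of 7757 bases but had a median predicted length of 533. The members were also spread more widely than exonic circles. Members of up to 400 bases made up 13.7% (67 of 490) against 3.57% of the exonic class, and members over 20000 bases made up 24.7% against 22.3%. The shortest member lay in MYL6, a myosin light chain gene, on chromosome 5 from 57161881 to 57161956. The longest lay in FOCAD, which encodes focadhesin, on chromosome 8 from 23529931 to 23625300, and both had 1 junction read in a single library. All positions are on bosTau9.

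**Figure D1:**
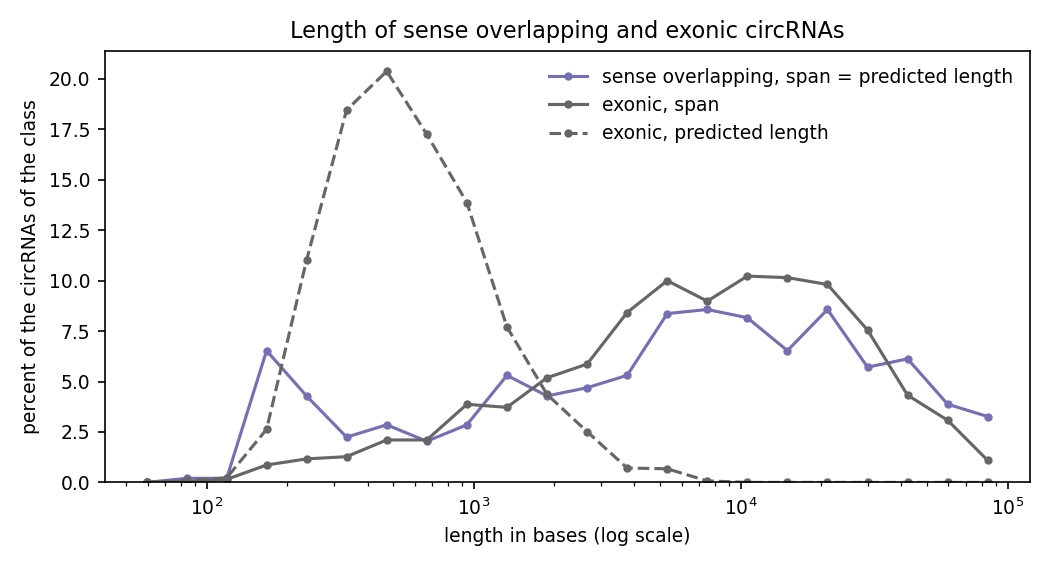
Length of sense overlapping and exonic circRNAs. The x axis is the length in bases on a log scale and the y axis the percent of the circRNAs of a class in each length bin. The solid violet line is the sense overlapping class, whose span and predicted length are the same, the solid grey line the exonic span and the dashed grey line the exonic predicted length. The sense overlapping curve follows the exonic span above 1000 bases, with a second rise below 400 bases, and lies far to the right of the exonic predicted length.

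Few members shared an end with an exonic circRNA. A start was shared with an exonic circRNA on the same strand by 25 members and an end by 22, so that 47 of 490 (9.59%) shared one end and none shared both. Of the intronic circRNAs 6 of 278 (2.16%) shared an end with an exonic circle, and of the antisense circRNAs 0 of 348. The 47 members with a shared end were longer, with a median span of 15455 bases against 6024 for the other 443, and 24 of them (51.1%) carried an m6A peak in at least 1 library against 178 of 443 (40.2%). None of these 47 was seen in more than 1 library.

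The 490 members came from 421 host genes, and 371 of these hosts gave a single member. In 163 of the 421 hosts (38.7%) exonic circles were found as well. By the RefSeq gene table, 424 members (86.5%) had a protein-coding host against 97.1% of exonic circles. The remaining members had a pseudogene (12), a ribosomal RNA gene (12), a long noncoding RNA gene (7) or a small RNA gene (3) as host, or a symbol that was not matched (32). Hosts with a LOC symbol, that is genes without an assigned name, carried 11.8% of the members and 0.752% of the exonic circles.

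The host with the most members was a ribosomal RNA gene. LOC112444653 had 11 members, and together with LOC112444681, annotated as a pseudogene with 4 members, and RN18S1, the gene of 18S ribosomal RNA, with 1 member, it gave 16 members on the minus strand of a stretch of 6062 bases, on chromosome 27 from 6219673 to 6225734. Each of the 16 was seen in a single library. They held 19, 3 and 2 junction reads in the 3 control libraries, 0, 0 and 0 in S. aureus libraries and 4, 0 and 0 in E. coli libraries. Control well 1 therefore held most of these reads, where they were 10.9% of all reads of the class. No exonic circle and 9 antisense circles lay across the same stretch, and the 16 members carried 0 peaks. In the mitochondrial genome 5 members were listed, from the genes of both ribosomal RNAs and of the transfer RNAs for glutamine and isoleucine, with 13 reads in all and 0 peaks. The next hosts by number had 3 members each, among them HS2ST1 (heparan sulfate 2-O-sulfotransferase), LOC100847818, LOC104976281, LOC787397, PKM (pyruvate kinase), RASA1 (a Ras GTPase activating protein) and ZMYM2 (a zinc finger protein).

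Fewer sense overlapping circRNAs were detected in cells treated with either bacterium than in control cells, and their share of all detected circRNAs was also lower in E. coli wells. At least 1 junction read was found for 99, 100 and 121 members in control libraries, for 14, 20 and 30 in S. aureus libraries and for 48, 48 and 46 in E. coli libraries. These numbers did not overlap between groups, and neither did the total junction reads. Members made up 12.7%, 12.2% and 11.9% of the detected circRNAs in control wells, 6.19%, 9.26% and 12.0% in S. aureus wells and 9.39%, 8.92% and 9.81% in E. coli wells. The mean was 12.3% ± 0.390 (SD, n = 3) in control wells and 9.37% ± 0.443 in E. coli wells, and all E. coli wells lay under all control wells (exact two-sided permutation test, p = 0.1, adjusted p = 0.3 over 3 comparisons). With 3 wells against 3 this exact test cannot go below p = 0.1. The S. aureus wells were too far apart to separate from either group, at 9.14% ± 2.88 (exact permutation test, p = 0.2 against control and p = 0.8 against E. coli).

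The share of junction reads gave the same order. Members held 174 of 1529, 213 of 1714 and 215 of 2057 junction reads in control libraries, which were 11.4%, 12.4% and 10.5%. In E. coli libraries they held 80, 79 and 88 reads, or 8.71%, 8.21% and 9.68%. The difference of 2.55 percentage points between 11.4% ± 0.988 and 8.87% ± 0.748 (SD, n = 3) again separated all wells (exact permutation test, p = 0.1, adjusted p = 0.3). In S. aureus libraries members held 20, 31 and 48 reads. This was 5.21% in well 1 (95% Wilson interval 3.40% to 7.91%) and 11.9% in well 3 (9.13% to 15.5%), and these intervals, which cover counting error only, did not overlap. With each library thinned to 361 junction reads the mean number of members detected was 34.9 ± 1.93 in control wells, 20.7 ± 7.55 in S. aureus wells and 25.0 ± 0.845 in E. coli wells (SD, n = 3), and the share was 11.8%, 9.18% and 9.10%.

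**Figure D2:**
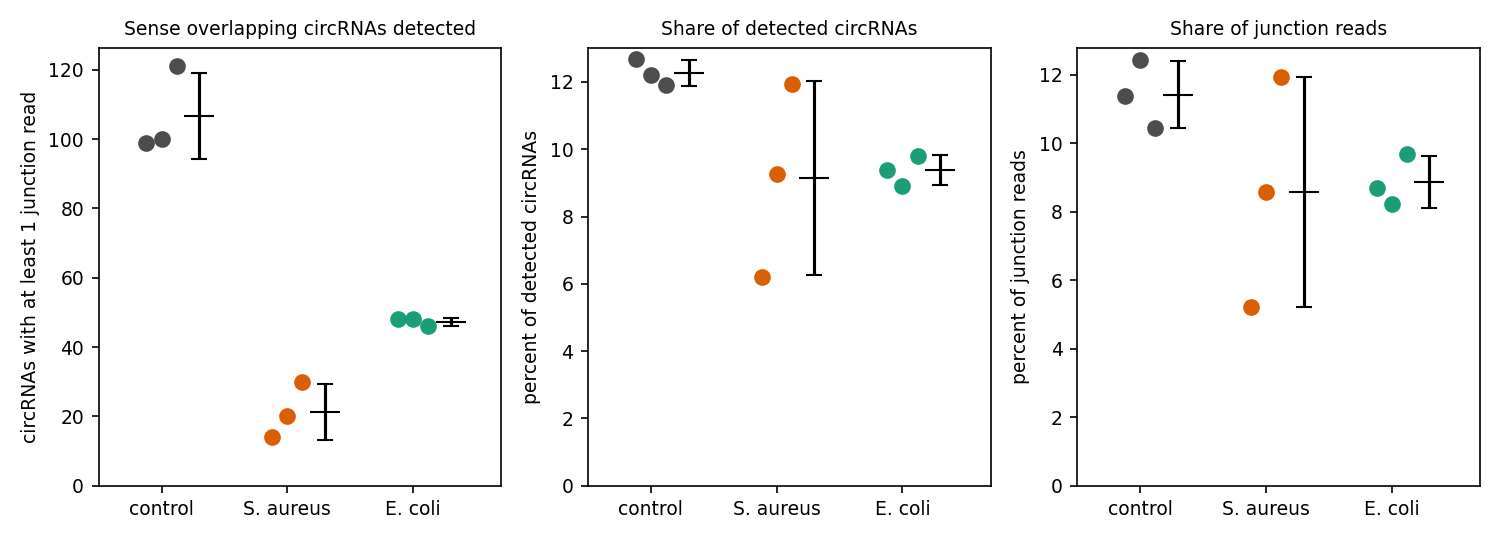
Sense overlapping circRNAs in the input libraries. Points are wells, and the black bar is the mean with its SD (n = 3). The left panel gives the number of members with at least 1 junction read, the middle panel their percent of all detected circRNAs and the right panel their percent of all junction reads. The E. coli wells lie below the control wells in all panels, while the S. aureus wells range from 5.21% to 11.9% of junction reads.

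Most members were seen once. Of the 490, 464 (94.7%) had reads in 1 library only, 20 in 2 libraries and 6 in 3 or more, and 237 (48.4%) had a single read. Among exonic circRNAs 81.8% were seen in 1 library and 40.2% had a single read. The other classes were nearer to the members, with 96.6% of antisense, 95.7% of intronic and 87.7% of intergenic circRNAs in 1 library. A detected member had 1.89 ± 0.210 reads on average in a control library against 2.13 ± 0.0746 for an exonic circle (SD, n = 3). The mean was lower for members in 8 of the 9 libraries (exact sign-flip test over the 9 wells, p = 0.00781), with S. aureus well 3 as the exception at 1.60 for both classes. In control wells 306 members were found, of which 293 were found in no other group, and 58 of 62 members in S. aureus wells and 125 of 137 in E. coli wells were likewise found in that group alone. For exonic circRNAs the corresponding counts were 1315 of 1641 in control, 294 of 444 in S. aureus and 700 of 996 in E. coli wells. Control and E. coli libraries shared 271 exonic circRNAs, control and S. aureus libraries 125, and 70 were found in all groups. Of the members, control and E. coli libraries shared 11, control and S. aureus libraries 3, and 1 member was found in all groups.

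That member, and the one with the most reads, was a circle of 470 bases in NSUN4, which encodes a mitochondrial ribosomal RNA methyltransferase, on chromosome 3 from 99758568 to 99759037. It had 2, 2 and 6 junction reads in control libraries, 1, 0 and 0 in S. aureus libraries and 0, 2 and 5 in E. coli libraries. The groups overlapped, and no peak was called on it. The circle of CNNM4, a magnesium transporter gene, on chromosome 11 from 2750167 to 2764803 had 1, 12 and 1 reads in control libraries and 0 in each of the other 6. It was present in every control well and in no treated well, but control well 2 held 12 of its 14 reads. MORC3, which encodes a nuclear ATPase, had a circle of 3934 bases on chromosome 1 from 148622266 to 148626199 with 0, 4 and 0 reads in control libraries, 0, 0 and 0 in S. aureus libraries and 2, 7 and 0 in E. coli libraries.

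The other members with many reads were mostly those of 1 or 2 wells. LOC112446381 had 8 reads in control well 2 and 1 in E. coli well 3. YEATS2, a histone reader gene, had 7 reads in control well 2, and LDLRAD4, which encodes an inhibitor of TGF-beta signalling, had 7 in control well 1. SLX4IP, whose product binds the SLX4 nuclease scaffold, had 6 reads in S. aureus well 2, and CCDC191, a coiled-coil gene, had 6 in E. coli well 2. SPC24, a kinetochore gene, had 4 and 2 reads in E. coli wells 2 and 3. PDGFC, the gene of a platelet-derived growth factor, was spread more evenly, with 1, 0 and 2 reads in control libraries and 0, 1 and 2 in E. coli libraries. NUP35, a nuclear pore gene, had 0, 4 and 1 reads in control libraries and 1, 0 and 0 in E. coli libraries. Apart from NSUN4, CNNM4, MORC3, PDGFC and NUP35, only PANK3, a pantothenate kinase gene, was seen in 3 or more libraries, with 1 read in each of 3.

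Junction reads of single circRNAs were tested with edgeR's quasi-likelihood test on the 79 circRNAs of all classes that had at least 2 reads in at least 3 libraries, and 2 of the 490 members, NSUN4 and MORC3, entered it. At an adjusted p under 0.05, 0 circRNAs were called in any comparison (0%), members included, and DESeq2 also called 0. At an unadjusted p under 0.05 edgeR gave 13 for S. aureus against control, 7 for E. coli against control and 12 for E. coli against S. aureus. At the thresholds of the study, a fold change of at least 2 and an unadjusted p of at most 0.05, the calls among all 79 were 16.5% for S. aureus against control, 8.86% for E. coli against control and 15.2% for E. coli against S. aureus. In this order 0 were up and 13 down, 1 up and 6 down, and 10 up and 2 down. The study reports mostly upregulated circRNAs against control for both bacteria, from a larger set of circRNAs. Neither member passed these thresholds against control. MORC3 passed them for E. coli against S. aureus (log2 fold change 4.67 ± 2.31 SE, edgeR, adjusted p = 0.286). This call ended without TMM, with DESeq2, with the replicate block and in 7 of the 9 fits that left a well out, in 3 of which MORC3 no longer passed the filter, while the log2 fold change ranged from 3.69 to 5.33 wherever it was fitted. Since all S. aureus libraries were at 0, the fold was also set against a floor of 3 counts over the S. aureus group. The 9 reads summed over E. coli wells gave a share of junction reads 1.23-fold that floor. No lower limit was set for the E. coli reads, so this is not a smallest fold. For NSUN4 the log2 fold change was -2.14 ± 1.63 for S. aureus against control (adjusted p = 0.383) and -0.14 ± 1.30 for E. coli against control (adjusted p = 0.979 by edgeR). The other 488 members did not pass the filter. When no filter was applied, CNNM4 was the 1 member that passed the thresholds of the study against control, for each bacterium, with a log2 fold change of -5.22 in both comparisons and adjusted p-values of 0.508 for S. aureus and 0.422 for E. coli by edgeR, and 12 of its 14 reads came from control well 2.

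The m6A peaks on sense overlapping circRNAs were fewest in S. aureus wells and most numerous in control wells. The control libraries had 258, 223 and 240 peaks on members, the E. coli libraries 126, 160 and 127 and the S. aureus libraries 7, 6 and 5, with no overlap between groups (exact permutation test, p = 0.1 and adjusted p = 0.1 for each of the 3 comparisons). The E. coli mean of 138 ± 19.3 was 1.75-fold lower than the control mean of 240.3 ± 17.5, and the S. aureus mean of 6.00 ± 1.00 was 40.1-fold lower (SD, n = 3). When peaks were kept only up to a false discovery rate of 20%, the order of E. coli and control was the reverse, with a mean of 75.7 more peaks in E. coli wells. The control libraries then kept 105, 0 and 43 peaks and the E. coli libraries 112, 152 and 111, so control well 2 lost all of its peaks. Members took a like share of all peaks in every group, 19.4% ± 0.320 in control wells, 21.4% ± 3.22 in S. aureus wells and 19.2% ± 0.514 in E. coli wells (exact permutation test, p = 0.4 to 0.7). This share was higher than their share of junction reads in each of the 9 wells.

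A peak was found on a larger part of sense overlapping than of exonic circRNAs in every library. In control libraries 169, 151 and 157 members carried a peak, in S. aureus libraries 7, 6 and 5 and in E. coli libraries 96, 118 and 98. The shares of the 490 members were 32.4% ± 1.87 in control wells, 1.22% ± 0.204 in S. aureus wells and 21.2% ± 2.48 in E. coli wells (SD, n = 3, exact permutation test, p = 0.1 for each comparison), against 21.9% ± 1.49, 0.226% ± 0.0376 and 13.8% ± 1.79 of exonic circles. The difference within a library ranged from 0.757 to 10.9 percentage points with a mean of 6.32, and was positive in 9 of 9 libraries (exact sign-flip test over wells, p = 0.00391, adjusted p = 0.00586 over the 3 measures compared between the classes). Between circles with a predicted length of 400 to 2000 bases the mean difference was 3.58 points and was positive in 5 of 9 libraries (exact sign-flip test, p = 0.0625).

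The share with a peak depended on the span of the circle. In control wells 35.8% ± 3.95 of members of up to 400 bases, 32.1% ± 1.44 of those of over 400 to 2000 bases, 24.0% ± 1.71 of those of over 2000 to 20000 bases and 46.3% ± 2.19 of those over 20000 bases carried a peak (SD, n = 3). For exonic circles of the same spans the shares were 22.5% ± 1.61, 23.7% ± 1.27, 19.8% ± 1.85 and 26.2% ± 0.930. Short and long members thus lay farthest above exonic circles of their span. In E. coli wells the gap was again widest at both ends of the range, with 28.9% ± 4.80 of the shortest and 29.8% ± 2.48 of the longest members against 10.9% ± 0.608 and 16.8% ± 2.71 of exonic circles. At over 400 to 2000 bases the classes overlapped there, at 18.3% ± 5.64 and 15.8% ± 1.60. In each S. aureus library 4 of the 67 members of up to 400 bases (5.97%) carried a peak, and 0 of the 95 exonic circles of this span, which allows a share of up to 3.16%. Over all libraries 18 of the 35 members of up to 200 bases had a peak against 4 of 29 exonic circles, and 76 of 121 members over 20000 bases (62.8%) against 180 of 592 (30.4%). By predicted length instead of span, members were higher only up to 1000 bases, with 42.4% against 24.6% at over 400 to 1000 bases. Exonic circles were higher above that, with 44.3% against 31.9% at over 1000 to 2000 bases. At over 2000 to 5000 bases they had 64.7% against 28.4% of members.

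**Figure D3:**
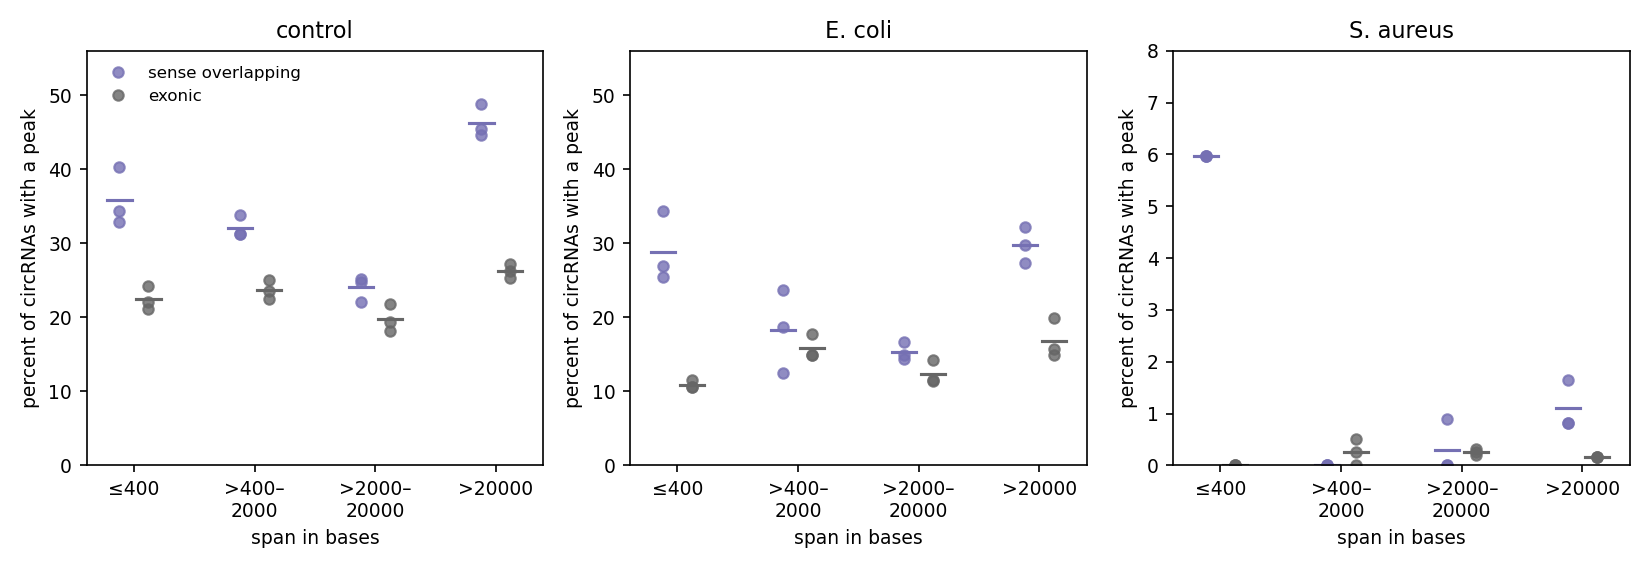
Share of circRNAs with an m6A peak by genomic span. Each point is an IP library and the line is the mean of the 3 libraries of a group, in violet for sense overlapping and in grey for exonic circRNAs. The x axis gives the span in bases and the y axis the percent of all circRNAs of that class and span in the table, on a smaller scale for the S. aureus group. The control means of sense overlapping circRNAs are 35.8% at up to 400 bases and 46.3% above 20000 bases, both above the exonic means of 22.5% and 26.2%.

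The number of peaks per kilobase was lower or higher than in exonic circRNAs depending on which length was used. Per kilobase of predicted sequence length, members had 0.0339 ± 0.00247 peaks in control wells, 8.45e-04 ± 1.41e-04 in S. aureus wells and 0.0194 ± 0.00273 in E. coli wells, against 0.441 ± 0.0382, 0.00383 ± 7.63e-04 and 0.251 ± 0.0426 for exonic circles (SD, n = 3). The ratio was below 1 in 9 of 9 libraries and on average 9.12-fold lower (mean log2 ratio -3.19, exact sign-flip test, p = 0.00391, adjusted p = 0.00586). Per kilobase of genomic span the exonic values were 0.0248 ± 0.00215, 2.16e-04 ± 4.29e-05 and 0.0142 ± 0.00240, and members were higher in 9 of 9 libraries, on average 1.95-fold (mean log2 ratio 0.96, exact sign-flip test, p = 0.00391). By span the mean log2 ratio was 0.448 in control, 0.458 in E. coli and 1.98 in S. aureus wells. By predicted length it was -3.70, -3.69 and -2.17. Both averages thus depend on the S. aureus wells, which held 5 to 7 peaks on members each. The predicted lengths sum to 7100 kilobases over the members, for all of which they equal the span, and to 2003 kilobases over the exonic class, for most of which they do not, so that the 2 classes are not on one scale in the first measure. Where both classes were limited to a predicted length of 400 to 2000 bases, members had fewer peaks per kilobase in the 6 control and E. coli libraries, on average 1.48-fold (exact sign-flip test, p = 0.0312, the smallest value 6 wells allow), and the S. aureus libraries had no peak on such members.

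**Figure D4:**
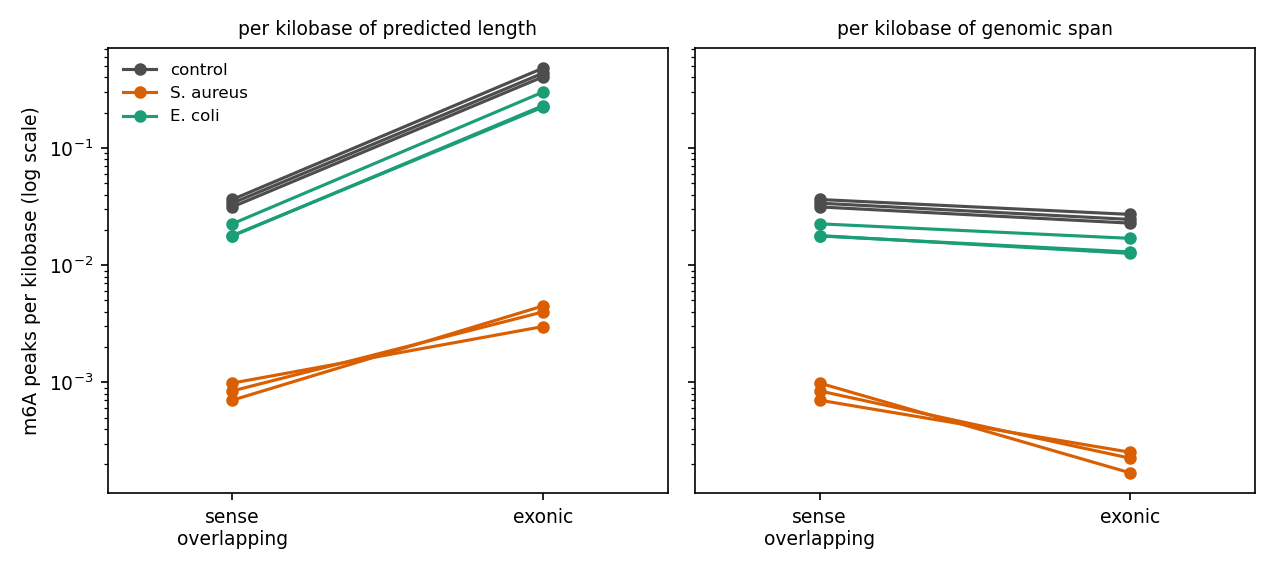
m6A peaks per kilobase in both classes. Each line joins the sense overlapping and the exonic value of an IP library, coloured by group, on a log y axis of peaks per kilobase. In the left panel lengths are the predicted sequence lengths, where sense overlapping values are on average 9.12-fold lower, and in the right panel the genomic spans, where they are on average 1.95-fold higher. Both averages are over all libraries. The classes differ least in the S. aureus libraries in the left panel and most in them in the right panel.

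Peaks on members were wider than those on exonic circles in the control and E. coli groups. Their median width was 859.5, 856 and 824.5 bases in control libraries and 651, 719 and 826 in E. coli libraries, while exonic peaks had medians of 195 ± 2.75 and 242 ± 26.3 bases (SD, n = 3). All 6 libraries differed in this direction, and the 3 S. aureus libraries in the other. The width was examined after values were seen. Over all 9 wells the exact sign-flip test of the difference gave p = 0.0312. In S. aureus libraries the medians were 334, 252.5 and 171 bases on members, below the exonic mean of 384 ± 34.8. Every peak lay within its circle, and an end of the circle was touched by 59.3% ± 0.731 of the peaks on members in control wells and by 58.7% ± 0.688 of those on exonic circles. The whole circle was covered by 17.5% ± 0.776 of the peaks on members and by 9.16% ± 0.496 of exonic peaks in control wells, and by 22.0% ± 1.19 and 11.7% ± 1.71 in E. coli wells. In S. aureus wells 11 of the 18 peaks on members covered the whole circle and 0 of 23 exonic peaks did. These peaks were counted over 3 libraries and lay in 8 regions on members and 11 on exonic circles. A peak on a member also lay inside another circRNA of the same strand in 11.4% ± 2.81 of cases in control wells, against 18.8% ± 1.11 for exonic peaks, and it was listed for 1 circRNA only.

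Fold enrichment, the height of a peak over the input as the peak caller gave it, was much alike in the 2 classes. Its median on members was 25.4, 25.7 and 17.4 in control libraries, 32.3, 32.8 and 37.2 in E. coli libraries and 25.3, 70.2 and 152.7 in S. aureus libraries. The E. coli mean of 34.1 ± 2.69 lay above the control mean of 22.8 ± 4.71 with no overlap (exact permutation test, p = 0.1, adjusted p = 0.3). The exonic medians in the same groups were 33.1 ± 2.56 and 21.2 ± 3.98 (SD, n = 3). Members exceeded exonic circles in 8 of 9 libraries, but by 2.33 or less in each control and E. coli library, and the mean difference of 7.52 rested on S. aureus well 3 with 81.8 (exact sign-flip test, p = 0.504; without that well the mean difference was -1.76). Among peaks on circles of 400 to 2000 bases the difference was 5.42 in the 6 control and E. coli libraries (exact sign-flip test, p = 0.0312).

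For the following values, peaks of different libraries on the same circle were joined where they shared at least 1 base. The highest fold enrichment was on the circle of SREK1, a gene of a serine and arginine rich splicing regulator, on chromosome 20 from 13440871 to 13467593, in the peak from 13451624 to 13453909. It was 292.1, 303 and 178 in control libraries, 292.2, 164 and 278 in S. aureus libraries and 211, 290.3 and 359 in E. coli libraries, and the groups overlapped. This circle of 26723 bases had 4 junction reads, all in control well 2. It carried 6 peaks in each control library and 1 in each S. aureus library, so that the other 5 were called in no S. aureus library.

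Several short circles had a high peak. In PRPF38B, another splicing factor gene, the circle of 151 bases on chromosome 3 from 34674205 to 34674355 had fold enrichments of 105, 114 and 126 in control libraries, 109, 112 and 202 in S. aureus libraries and 87.8, 99.0 and 89.0 in E. coli libraries. The E. coli values lay under all control values. In TCHH, the gene of the hair follicle protein trichohyalin, the circle of 171 bases on chromosome 3 from 18623323 to 18623493 had 119.8, 117 and 81.8 in control libraries, 90.7, 191 and 153 in S. aureus libraries and 105, 115 and 136 in E. coli libraries, with all groups overlapping. RRBP1, which encodes a ribosome-binding protein of the endoplasmic reticulum, had a lower peak on a circle of 150 bases on chromosome 13 from 38009536 to 38009685, at 28.2, 28.3 and 19.3 in control, 25.3, 28.4 and 42.4 in S. aureus and 17.45, 26.2 and 33.7 in E. coli libraries. The peaks of SREK1, PRPF38B, TCHH and RRBP1 were the only 4 of 316 peak regions on members that were called in all 9 IP libraries. On exonic circles 1 of 1205 peak regions was called in all 9. PRPF38B, TCHH and RRBP1 had 1 junction read each, in E. coli well 3, control well 3 and control well 3.

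Other high peaks were shared by the control and E. coli groups but were called in no S. aureus library. In TCEAL4, a transcription elongation factor-like gene on the X chromosome, the circle of 173 bases from 52344898 to 52345070 had 116, 109.6 and 91.4 in the control and 88.5, 97.2 and 109 in E. coli libraries, although its 1 junction read was in S. aureus well 3. PTGFRN (a prostaglandin F2 receptor regulator), KIF3C (a kinesin motor) and MAP7 (a microtubule-associated protein) also had peaks in all 6 of these libraries. The mean fold enrichment of the KIF3C peak was 67.4 ± 5.45 in control wells and 106 ± 32.9 in E. coli wells. CNNM4 had 119.8, 126 and 83.9 in control libraries and 59.95 in E. coli well 2 alone. UBP1, a transcription factor gene on chromosome 22, had 67.1, 68.6 and 48.6 in control libraries and 161.5, 90.7 and 134 in E. coli libraries, with no overlap, while CFDP2 on chromosome 18 had 101, 66.8 and 57.4 against 60.2, 130 and 215, which did overlap.

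Of the 89 peak regions on members called in all 6 of these libraries, 8 had a higher fold enrichment in every E. coli than in every control library, against 9.49% of the 432 such regions of all classes. In the other direction there were 2, PRPF38B and CEP120, a centrosome gene, against 1.62% of all classes. Both counts were near those of all classes. CEP120 had 92.5, 32.4 and 39.9 in the control and 22.4, 27.8 and 31.2 in E. coli libraries, and was named after its values were seen.

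**Figure D5:**
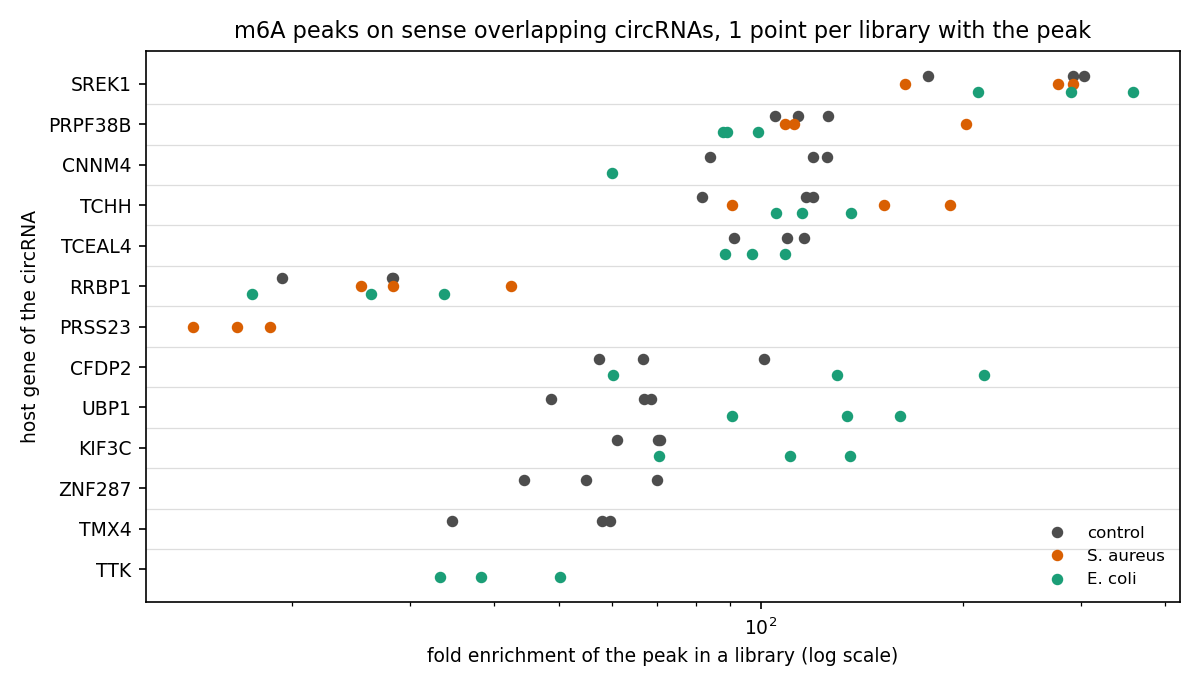
Fold enrichment of named m6A peaks on sense overlapping circRNAs. Each point is an IP library in which the peak was called, placed by its fold enrichment on a log x axis and coloured by group, and a group without points had no peak there. SREK1 ranges from 164 to 359 over 9 libraries, while PRSS23 has points for the S. aureus group only, ZNF287 and TMX4 for the control group only and TTK for the E. coli group only. The TMX4 circle had another peak region, not drawn, that was called in all 3 E. coli libraries.

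The members with the most peaks were long. The circle with the most peaks, with 9, 8 and 8 in control libraries and 3, 6 and 3 in E. coli libraries, spanned 22221 bases on chromosome 11 from 37365778 to 37387998 and was annotated to MIR2297, a miRNA gene. It had 1 junction read, in E. coli well 1. CCDC18, a coiled-coil gene, had 5, 6 and 8 peaks in the control and 1, 1 and 1 in E. coli libraries on a circle of 78892 bases. FMN1, a formin that nucleates actin filaments, had 6, 4 and 3 against 1, 1 and 1 on 83780 bases. AFAP1L2, an actin filament-associated gene, had 6, 6 and 5 against 2, 2 and 3 on 30456 bases, and CFDP2 had 6, 3 and 5 against 3, 4 and 3 on 32265 bases. SREK1, by comparison, had 6, 6 and 6 in control and 6, 6 and 4 in E. coli libraries. In S. aureus libraries no member had more than 1 peak.

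The 316 peak regions on members fell mostly into those of the control group and a subset of them. In control wells 303 regions were called and 183 of them (60.4%) in all 3 libraries, and in E. coli wells 187 and 92 (49.2%). For exonic circles the shares in all 3 libraries were 56.5% and 43.6%. The groups shared 178 regions, which were 58.7% of the control and 95.2% of the E. coli regions. On exonic circles these shares were much alike, at 58.0% and 92.1%. Of the 183 regions found in all 3 control libraries, 39 (21.3%) were called in no E. coli library, against 126 of 647 (19.5%) on exonic circles. ZNF287, a zinc finger gene on chromosome 19, had the highest of them, on a circle of 336 bases from 33136022 to 33136357, at 55.0, 70.1 and 44.3. It was followed by TMX4 (a thioredoxin-related membrane protein), at 59.7, 57.9 and 34.7 in the region from 678900 to 683765 on chromosome 13. Another region of the TMX4 circle, from 684754 to 685066, was called in all control and E. coli libraries, at 16.3, 18.1 and 18.0 in the latter. IPO8 and TNPO1, both genes of nuclear import receptors, had means of 32.2 ± 11.6 and 28.5 ± 2.19 for the 2 regions of IPO8 and 28.5 ± 3.63 for TNPO1. LOC101906870, LOC523461, FMN1, CCDC18 and PDS5A, a cohesin regulator gene, completed these 10 regions, with means from 25.0 to 28.1.

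The opposite case was rare in both classes. Among 1205 regions on exonic circles, 1 was called in all 3 E. coli libraries and in no control library. For all 3 S. aureus libraries and no control library there were 3. On members, 1 of 316 regions showed each pattern. One region was called in all 3 E. coli libraries and in no control library, on the circle of TTK, a spindle checkpoint kinase gene, with the peak on chromosome 9 from 19733944 to 19734638 and fold enrichments of 38.3, 33.2 and 50.2. One was called in all 3 S. aureus libraries and in no other library, on the circle of 334 bases of PRSS23, a serine protease gene, on chromosome 29 from 8736735 to 8737068, with 14.25, 18.6 and 16.6. Its 1 junction read was in control well 1. Of the 8 S. aureus regions on members, 5 were in all 3 libraries. The other 3 were called in 1 library each, on circles of FN1 (fibronectin) at 9.34 and PKM at 16.9 in well 1 and of CLIC4 (an intracellular chloride channel protein) at 20.4 in well 2.

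A peak and a junction read seldom met in the same well. Of the members with a peak, 23.7% ± 4.36 had a junction read in the input of the same well in control wells and 9.50% ± 1.96 in E. coli wells, against 23.7% ± 3.00 and 15.1% ± 2.11 for exonic circles (SD, n = 3). In S. aureus wells 0 of the 18 peak-bearing members, counted over the 3 libraries, had one. Conversely, a peak was found on 35.2% ± 3.63 of the members with a junction read in the same control well and on 31.6% ± 1.86 of those without. In E. coli wells these shares were 21.1% ± 6.27 and 21.2% ± 2.19, which differed by less than the spread between wells.

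Host genes were set against lists of pathways. Members had 421 hosts in all against 1654 for exonic circles, and 202 of the 490 members (41.2%) carried a peak in at least 1 library. Of the 24 m6A writers, erasers and readers, 0 hosted a member and 7 an exonic circle. Among 48 splicing genes 5 hosted members and 7 hosted exonic circles, and 4 of the 5, SREK1, PRPF38B, MBNL2 (a splicing regulator) and SRRM1 (a splicing coactivator), carried a peak. SRRM2, which encodes a spliceosome scaffold, had 2 members without a peak. Among 49 chromatin regulators 10 hosted 12 members, of which 6 had a peak, and 28 hosted an exonic circle. Examples were CREBBP, a histone acetyltransferase gene with 4 reads in E. coli well 3 and a peak in 6 libraries, ATRX, a chromatin remodeler gene with a circle of 146 bases, 1 read and a peak in 6 libraries, and KMT2E and TET3 with a peak in 5 and 3 libraries. EZH2, the methyltransferase of histone H3 lysine 27, hosted 2 members without a peak. Among 29 genes of mRNA decay and miRNA silencing 4 hosted members and 17 exonic circles. TNRC6B, a partner of Argonaute, had a circle of 59070 bases with 3, 4 and 4 peaks in the control and 3, 3 and 2 in E. coli libraries, and one of the 2 members of AGO2, an Argonaute gene, had a peak in 4 libraries. DCP2, the decapping enzyme gene, had 4 reads in control well 2 and no peak.

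Of 43 inflammation and innate immunity genes, 4 hosted a member, 7 an exonic circle and 10 a circle of any class. CD44 (a hyaluronan receptor), IL6ST (the shared receptor of the interleukin 6 family), JAK2 (a cytokine receptor kinase) and TAB3 (an adaptor of the TAK1 kinase) hosted 1 member each. TAB3 carried a peak in 6 libraries and the others none, and CD44 had 1 read in control well 3 and 2 in E. coli well 2. ATG16L1, an autophagy gene, with 4 reads in control well 3, was the only host among 42 apoptosis and autophagy genes, of which 9 hosted an exonic circle, and HIF1A, the hypoxia factor gene, with 1 read in E. coli well 2, the only one among 41 stress and immediate early genes, of which 1 did. Of 45 matrix, integrin and focal adhesion genes 8 hosted 11 members and 21 hosted an exonic circle, and 2 of them carried a peak, FN1 and PRSS23, in S. aureus libraries alone. COL17A1, ITGA2, ITGB1, ITGB6, LAMA3 and TNC had no peak on a member in any IP library. The study's list of differential peaks does place one, higher with S. aureus, on the longer ITGB6 member. How that list relates to the peaks of single libraries was not tested. Of 34 epithelial junction genes COL17A1 (a hemidesmosome collagen), CTNNA1 (alpha catenin), DSC2 (desmocollin) and DSP hosted 1 member each with no peak, and 11 hosted an exonic circle. Of 48 ubiquitin ligases and deubiquitinases FBXW7, HERC1, HERC4, NEDD4L and USP9X hosted 1 member each, HERC4 and NEDD4L had a peak in 1 library, and 23 genes of this list hosted an exonic circle. The HERC1 member had no peak in any IP library, but the study lists a differential peak on it. Each list holds too few members for a comparison between groups.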

How the data were processed

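Input and IP libraries were made from each of 9 wells of MAC-T cells, 3 per group, which gave 18 libraries. Per the labels and the study's methods, the authors used cutadapt 1.9.3 for trimming, STAR 2.5.1b for alignment to bosTau9, DCC for circRNA detection and edgeR 3.16.5. The deposited table holds junction read counts per input library, a class, a host gene and a predicted length. A further 9 columns of normalized values were not used. For each IP library the authors deposited peaks with a ratio (fold enrichment over input), a percent false discovery rate and a score. Peak names point to MACS, whose settings are not given in the sources used here. Chromosome names follow the order of the sequence identifiers, and positions count from 1.

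Members were taken by their class label alone. The members and gene lists were chosen with earlier results of these data known. Members named were the 10 with most reads and those tested, per group the 10 highest peaks in all 3 libraries, the 5 with most peaks, up to 10 peaks in all libraries of 1 group and none of another, the 5 leading hosts with ties, the longest and shortest, and up to 4 per list. Peak width, the shared ends, span groups and reads per detected circle were examined after values were seen. Values of single wells were compared by exact permutation tests or, within libraries, exact sign-flip tests, adjusted by Benjamini-Hochberg. Junction counts went into edgeR 4.0.16 (R 4.3.3, TMM, group as the only term, 9 libraries in 1 fit). The test was also run on simulated counts with a smaller spread between wells than these data. That run does not show how many changes the test can find here. Gene types came from the RefSeq table of assembly ARS-UCD2.0, which matched 394 of 421 hosts and gave no positions. Alternatives were other filters, lengths and thresholds, DESeq2 1.42.0, a replicate block and each well left out in turn. Sequences are not shown, and some hosts that the rule names are not reported here.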

Additional observations from a re-analysis of the deposited data

Results flagged for a closer look

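The width of m6A peaks differed between the classes in opposite directions in different groups. The median peak on sense overlapping circRNAs was wider than that on exonic circRNAs in every control well, by 651 bases on average, and in every E. coli well, by 490.5 bases, and it was narrower in every S. aureus well, with a mean difference of -131 bases. The difference between the groups was not tested, and the S. aureus medians rest on 5 to 7 peaks per library.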

How the results depend on the processing

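Of 298 alternative values for groups and classes, 270 kept their direction and their side of the threshold of 0.05. Part of this was fixed in advance. Group comparisons of wells by the exact permutation test cannot go below p = 0.1, so none could cross the threshold. The genomic span, regions listed once and the replicate block left the group differences of the class as they were. Peaks per kilobase relative to exonic circRNAs turned from a log2 ratio of -3.19 to 0.96 with the genomic span and to 1.29 with the mean over circles, where S. aureus libraries weigh most (p = 0.172, exact sign-flip test). E. coli minus control was 75.7 peaks up to a false discovery rate of 20%, where control well 2 kept 0 peaks. The share of peaks turned with fold enrichment over 20, to -2.47 points for S. aureus minus control and 1.73 for E. coli minus S. aureus, and without E. coli replicate 2 the E. coli minus control difference ranged up to 0.13 from -0.38. E. coli minus S. aureus, near 0 in the main values, was -0.15 points of detected circRNAs with at least 2 reads and -0.074 after thinning, from -1.23 to 1.65 with a well left out, and for the share of junction reads from -1.40 to 1.97. The excess of members with a peak missed the threshold at 400 to 2000 bases, at 3.58 points, and among circles with a junction read in the same well, at 6.35 points (p = 0.0625 for both, exact sign-flip test). The difference in median fold enrichment was 5.42 at 400 to 2000 bases and ranged from -1.76 without S. aureus replicate 3 to 11.7 without S. aureus replicate 1. Circles whose predicted length equals their span gave a log2 ratio of -4.33, an alternative chosen after seeing the data. The causes were not tested.

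The 1 call of MORC3 was 0 without TMM, with DESeq2, with the replicate block and in 7 of 9 fits that left a well out, so the range was 0 to 1. In 3 of these MORC3 no longer passed the filter. Without a filter 1 member, CNNM4, passed the study's thresholds against control for each bacterium. For NSUN4, E. coli minus control was 0.45 without TMM and ranged from -1.04 to 0.49 with a well left out, with 0.29 without control replicate 3. For S. aureus against control, E. coli against control and E. coli against S. aureus, 13, 7 and 12 of the 79 circRNAs passed the study's thresholds, against 9, 2 and 4 with the replicate block, 2, 6 and 6 without TMM and 5, 2 and 5 with DESeq2. Without a filter these were 22, 7 and 10 of 3914. With a well left out they ranged from 3 (of 71, without S. aureus replicate 1) to 16, from 2 to 7 and from 4 to 8. With the block the class differences could not change direction, since the mean of 3 paired differences equals the difference of the group means. Wells share only a number, with correlations of their deviations from -0.09 to 0.10. Regions listed once or for both classes changed nothing, since each is listed for 1 circRNA.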
